A study of Danio rerio with 6 samples.

Results

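The nuclear genes that encode subunits of the oxidative phosphorylation complexes were compared between zebrafish embryos without a working csf1ra gene and wild-type embryos. They were taken by symbol as every gene of the authors' deposited table whose name starts with nduf and a, b, c, s or v, with uqcr, with sdh and a, b, c or d, with cox and 4 to 8, or with atp5. This gave 96 of 31621 genes, of which 88 passed a filter of at least 1 FPKM in at least 3 of the 6 libraries and were tested among 15475 genes. By the complex to which the encoded protein belongs, 37 members (34 tested) were of complex I, 5 (4 tested) of complex II, 7 (6 tested) of complex III, 21 (20 tested) of complex IV and 15 (14 tested) of complex V. The other 11 (10 tested) are assembly and coupling factors that share these name stems. ndufa4 and its copies were counted in complex IV, since NDUFA4 in mammals is a subunit of cytochrome c oxidase in spite of its name.

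RNA was sequenced from whole embryos at 3 days post fertilisation. The mutant group was csf1ra-/-, made with CRISPR/Cas9, and the other group was wild type, whose libraries are titled TU, with 3 libraries each. The product of csf1ra is a receptor tyrosine kinase for colony-stimulating factor 1, used by macrophages, microglia and xanthophores, the yellow pigment cells. The labels give 30 embryos and 1 μg of total RNA, and can be read as 30 embryos for each genotype or for each sample. They do not say whether the libraries came from separate clutches, whether the wild-type embryos were siblings of the mutants or how many mutant lines were used, so p-values measure the spread between these libraries, which may be partly technical.

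Oxidative phosphorylation makes most of the ATP of cells with active mitochondria. Complex I takes electrons from NADH and complex II takes them from succinate, and both pass them to ubiquinone. Complex III hands them to cytochrome c, complex IV gives them to oxygen, and complex V, the ATP synthase, uses the proton gradient built by complexes I, III and IV. Complexes I, III, IV and V mix subunits encoded in the nucleus with a few encoded by mitochondrial DNA, and muscle, heart and nerve cells are rich in all of them. In RNA from whole embryos, fewer cells of a type and less RNA per cell cannot be told apart.

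The targeted gene followed the labels. csf1ra was not listed in mutant replicates 1 and 2 and stood at 0.563 FPKM in mutant replicate 3, against 4.54, 4.07 and 3.72 FPKM in wild-type replicates 1, 2 and 3. The first principal component of all genes, with 40.6% of the variance, separated the genotypes, and the second, with 18.3%, set mutant replicate 3 apart from the other 5 libraries. Read totals are not in the sources used here, and depth is therefore unknown. FPKM is read fragments per kilobase of transcript, scaled to the library's fragments, and each gene total is the larger of its summed first-exon and last-exon values. Fold changes are mutant over wild type on the log2(FPKM + 1) scale, where genes of low level appear to change less than they do, and a gene was called at an adjusted p under 0.05 in limma over all 15475 genes.

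The members were among the well expressed genes of the embryo. Together they held 2.83%, 2.72% and 2.50% of the summed FPKM in mutant replicates 1, 2 and 3, and 2.46%, 2.56% and 2.63% in wild-type replicates 1, 2 and 3. These ranges overlapped. Of the 88 tested members, 71 had a mean of at least 20 FPKM, a level that 2585 of the 15475 genes reached. Complex V had the highest median level over its tested genes, at 189, 177 and 164 FPKM in the mutant libraries and 166, 181 and 192 FPKM in the wild-type libraries. Complex I stood at 75.9, 74.3 and 66.6 FPKM in the mutant and 66.1, 72.3 and 73.1 FPKM in wild type. The assembly and coupling factors were an order lower, at 8.15, 7.61 and 7.07 FPKM in the mutant and 7.02, 6.69 and 6.38 FPKM in wild type.

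**Figure D1:**
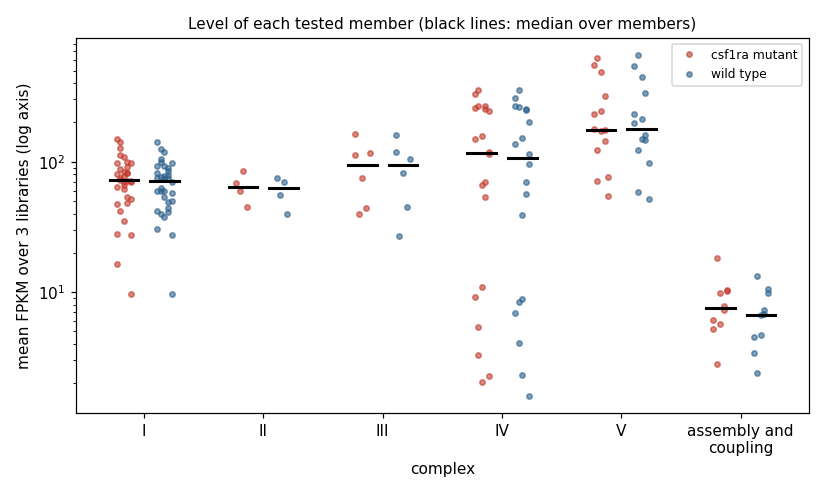
Each point is the mean FPKM of 1 tested member over 3 libraries, on a log axis, with csf1ra mutant (red) left of wild type (blue) in each complex and black lines at the median over members. The levels of the genotypes lie side by side in every complex. By the medians, complex V is highest and the assembly and coupling factors are lowest.

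Few members were called, though the share called was larger than that of all genes. The fold change was also above 0 in a larger share of members than of all genes. In the mutant 4 of 88 tested members were higher (ndufv1, ndufs6, ndufa4 and sdhaf2) and 1 was lower (ndufa5), and the others were not called. Over all genes tested, 2.42% were called, 1.21% higher and 1.2% lower. Unadjusted, 22 of 88 members had p under 0.05, against 15.9% of all genes. The fold change was above 0 in 61 of 88 members (69.3%), against 53.2% of all genes, and its median was 0.085, against 0.016 over all genes. Without any 1 library other than mutant replicate 3, none of the 4 higher members was called, with limma adjusted p of 0.0796 to 0.0916 for ndufv1, 0.0987 to 0.125 for ndufa4, 0.108 to 0.169 for ndufs6 and 0.0987 to 0.166 for sdhaf2. ndufa5 was called in each of these fits. The SD of single-library member medians within a genotype was 0.086 on the log2 scale, close to the median fold change. That SD describes 1 library and is not the error of a difference between groups of 3.

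The mutant libraries were not alike in this. Mutant replicate 1 lay above all 3 wild-type libraries in 58 members, replicate 2 in 43 and replicate 3 in 24. The same counts below all wild-type libraries were 5, 9 and 24. Over all genes, mutant replicate 1 was above every wild-type library in 34.9%, replicate 2 in 31.8% and replicate 3 in 29.3%. The shares of all genes below every wild-type library were 26.5%, 27.4% and 29.3% in the same order. All 3 mutant libraries were above all 3 wild-type libraries in 20 members (22.7%), against 12.1% of all genes, and below them in 2 members, ndufa5 and uqcrc2b, against 10.2%. Among genes with a mean of at least 20 FPKM, 14 of 71 members (19.7%) did not overlap and were higher, against 13.6% of all genes at that level, and 4 were called, against 3.02%. At that level the fold change was above 0 in 50 members (70.4%), against 51.1% of all such genes.

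**Figure D2:**
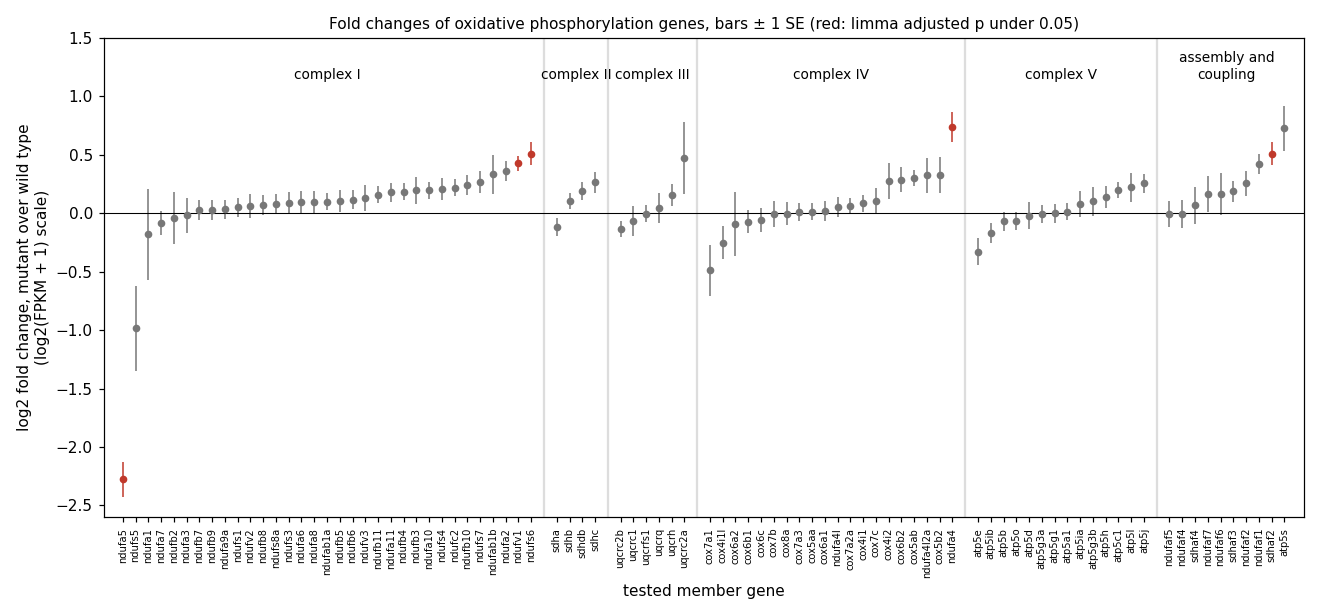
Each point is the limma log2 fold change (mutant over wild type, log2(FPKM + 1) scale) of 1 tested member with bars of ± 1 SE, sorted within its complex, and red marks an adjusted p under 0.05. Most points lie between -0.5 and 0.5, with ndufa5 far below the rest at -2.28 and ndufa4 at 0.74 and atp5s at 0.73 the 2 highest.

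The authors' own test, which worked on transcripts, called more genes in all. In the authors' deposited table, 50 of 94 members tested there (53.2%) had at least 1 transcript with an adjusted p under 0.05, against 30.1% of all 18800 genes tested there. At a mean of at least 20 FPKM the same share was 45 of 71 members (63.4%), against 52.8% of all genes at that level. By complex the authors' deposited table gave 21 of 36 for complex I, 3 of 4 for complex II, 7 of 7 for complex III, 8 of 21 for complex IV, 9 of 15 for complex V and 2 of 11 for assembly and coupling factors. The side of the comparison is not named in that table, so these counts carry no direction.

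Set out by complex, the medians of the log2 fold change were 0.10 for complex I, 0.15 for complex II, 0.02 for complex III, 0.04 for complex IV, 0.00 for complex V and 0.17 for the assembly and coupling factors. The SD of the library medians within a genotype was 0.090, 0.074, 0.11, 0.097, 0.097 and 0.039 in the same order. Complex I had 27 of 34 members above 0, complex II 3 of 4, complex III 3 of 6, complex IV 13 of 20, complex V 7 of 14 and the assembly and coupling factors 8 of 10. The summed FPKM of each complex was then set against its wild-type mean. Complex I reached 1.09, 1.06 and 1.00 times the wild-type mean in mutant replicates 1, 2 and 3, against 0.940, 1.02 and 1.04 times in wild-type replicates 1, 2 and 3. For complex V the sums were 1.08, 1.01 and 0.931 times that mean in the mutant and 0.928, 1.02 and 1.06 times in wild type. The libraries of the genotypes overlapped in the sum of each of complexes I to V. Among these 6 groups only the assembly and coupling factors did not overlap, with sums of 83.1, 86.5 and 81.8 FPKM in the mutant libraries and 69.1, 67.9 and 71.5 FPKM in the wild-type libraries. A wider list of 44 tested assembly factors, of which 35 lie outside these 10, overlapped, with sums of 526, 547 and 499 FPKM in the mutant and 481, 512 and 501 FPKM in wild type.

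**Figure D3:**
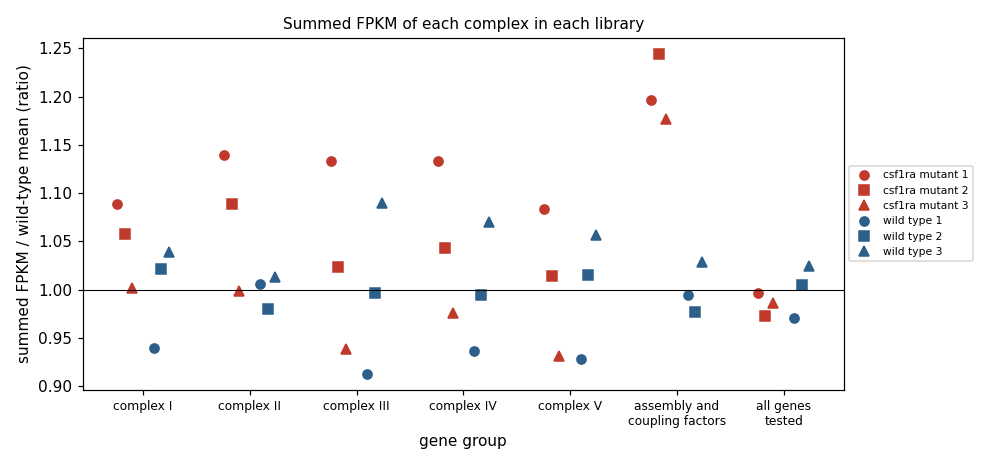
Summed FPKM of the tested genes of each group, divided by the mean of the 3 wild-type libraries, with csf1ra mutant libraries in red left of wild-type libraries in blue and the replicate shown by the marker's shape. Mutant replicate 1 is the highest library in each of complexes I to V while mutant replicate 3 lies among the wild-type libraries, and the genotypes are apart only for the assembly and coupling factors.

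Complex I is the largest complex of the chain. Its matrix arm takes the electrons from NADH and carries them through iron-sulfur clusters to ubiquinone, and its membrane arm pumps protons. Of 15 tested matrix arm genes, 2 were higher and 1 was lower in the mutant, and none of 17 membrane arm genes and none of the 2 acyl carrier genes was called. Of all genes tested, 1.21% were called higher and 1.2% lower. Unadjusted p was under 0.05 for 10 of the 34 genes of complex I, against 15.9% of all genes. These were 5 of 15 in the matrix arm and 5 of 17 in the membrane arm. The fold change was above 0 in 12 matrix arm and 13 membrane arm genes, with medians of 0.086 and 0.11 on the log2 scale. The arms were thus alike apart from the calls.

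ndufa5 changed most of all members. It encodes an accessory subunit of the matrix arm, and its listed exons span chr4:4921836-4924049 on the minus strand of GRCz10. It stood at 21.1, 14.3 and 13.7 FPKM in mutant replicates 1, 2 and 3, against 76.9, 85.9 and 83.0 FPKM in wild-type replicates 1, 2 and 3. Every mutant library was below every wild-type library, and the mutant mean was 0.200 times the wild-type mean. On the log2 scale it fell by 2.28 (SE 0.15), with a limma adjusted p of 0.000452. A single first exon and a single last exon were listed, with equal FPKM in each library. The authors' deposited table gave it an adjusted p of 0.00468. Of 54 tested neighbours within 1 Mb, ptprz1b and ngs were lower and none was higher. On chromosome 4 as a whole 20 of 516 tested genes (3.88%) were called, against 2.42% of all genes.

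ndufv1 encodes the flavoprotein that binds NADH and starts electron transfer in complex I. Its listed exons span chr19:9293106-9309587 on the plus strand. It had 149, 141 and 137 FPKM in mutant replicates 1, 2 and 3, against 106, 106 and 104 FPKM in wild-type replicates 1, 2 and 3. The mutant mean was 1.35 times the wild-type mean, with a log2 fold change of 0.43 (SE 0.064, limma adjusted p = 0.0192). The genotypes did not overlap, and the wild-type libraries lay within 2 FPKM of each other. Within 1 Mb of it, slc2a3a, rps27.1 and crabp2b were higher among 30 tested neighbours, against 1.21% of all genes, and none was lower. Over chromosome 19, 5.56% of tested genes were called, a larger share than the 2.42% of all genes.

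ndufs6 encodes a zinc-binding subunit of the matrix arm and lies on the same chromosome, at chr19:28696978-28699621 on the minus strand. It stood at 80.8, 67.5 and 65.1 FPKM in the mutant libraries and 51.0, 45.7 and 51.9 FPKM in the wild-type libraries. The lowest mutant value was above the highest wild-type value. The difference was 0.51 on the log2 scale (SE 0.099), and its limma adjusted p of 0.0467 was just inside the threshold. None of its 21 tested neighbours within 1 Mb was called. On chromosome 19 as a whole 35 of 629 tested genes (5.56%) were called, against 2.42% of all genes. Of the 5 tested members there, 2 were called.

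**Figure D4:**
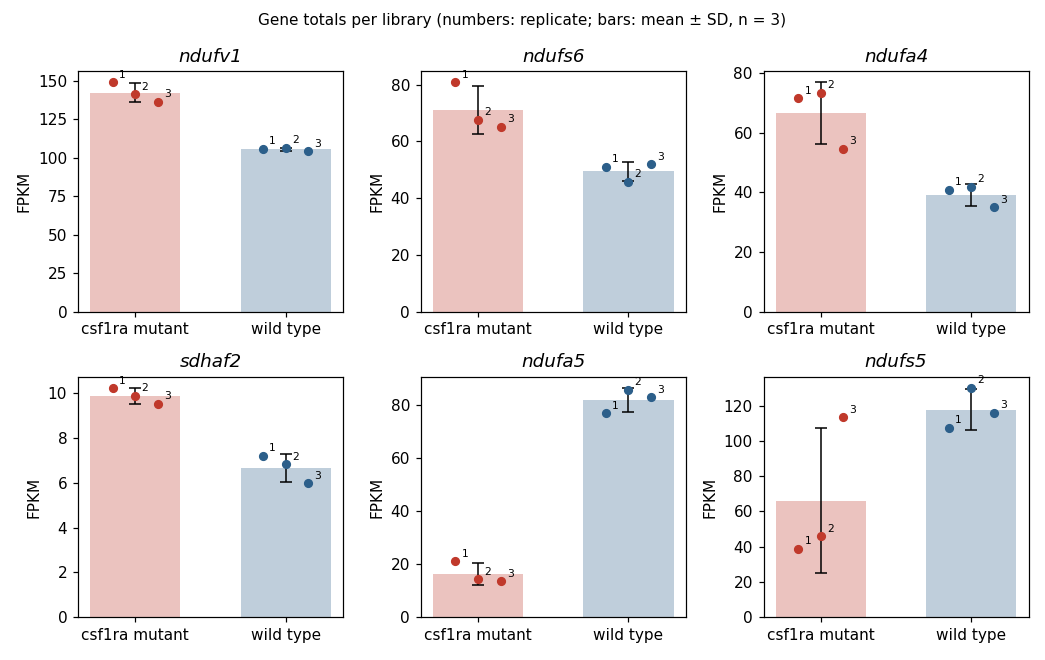
FPKM of 6 members in each library, with csf1ra mutant (red) left of wild type (blue), points numbered by replicate and bars at the mean ± SD of 3 libraries. ndufv1, ndufs6, ndufa4 and sdhaf2 lie higher and ndufa5 lies lower in all mutant libraries than in any wild-type library, whereas ndufs5 is low in mutant replicates 1 and 2 and at 113 FPKM in replicate 3.

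Other complex I genes were chosen for description after their values were seen. ndufs5, a membrane arm subunit on the same chromosome at chr19:35770076-35774436, split the mutant group. It stood at 38.9, 46.0 and 113 FPKM in mutant replicates 1, 2 and 3, and at 107, 130 and 116 FPKM in wild-type replicates 1, 2 and 3. Mutant replicates 1 and 2 were far below all wild-type libraries and mutant replicate 3 was among them. With all libraries the difference was -0.98 on the log2 scale (SE 0.36), with a limma adjusted p of 0.252. Without mutant replicate 3, the mutant library nearest wild type, it was -1.45 (SE 0.11, limma adjusted p = 0.00256). That omission was bound to widen the difference, and it was the only 1 of 18 alternatives that called ndufs5. Without mutant replicate 1 or 2 the difference was -0.69 or -0.81, with limma adjusted p of 0.513 and 0.496. Its first-exon and last-exon values were equal in each library.

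ndufa2, a small subunit of the matrix arm, had 53.4 ± 2.5 FPKM in the mutant and 41.5 ± 4.0 FPKM in wild type (SD, n = 3 each), with limma adjusted p = 0.0951. ndufs7, which carries the last iron-sulfur cluster before ubiquinone, had 69.9 ± 4.9 and 58.0 ± 6.0 FPKM in the same order. ndufc2, ndufa10 and ndufb4 of the membrane arm also did not overlap between the genotypes. ndufb4 had 119, 111 and 108 FPKM in the mutant and 94.4, 98.5 and 105 FPKM in wild type. None of these 5 passed the test, with limma adjusted p up to 0.274. With ndufv1 and ndufs6, 7 of 34 tested genes of complex I (20.6%) did not overlap and were higher. The share was 12.1% of all genes, and 13.6% of genes with a mean of at least 20 FPKM.

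Other core subunits of electron transfer lay close to wild type. ndufs1, the largest subunit of the matrix arm, averaged 81.5 ± 6.9 FPKM in the mutant and 78.6 ± 3.7 FPKM in wild type. ndufv2, the partner of ndufv1, averaged 77.0 ± 9.3 FPKM in the mutant and 73.4 ± 4.8 FPKM in wild type. The genotypes overlapped in both genes. The most abundant membrane arm genes, ndufb8 (148 ± 8.9 FPKM in the mutant and 142 ± 13 in wild type) and ndufb9 (127 ± 7.4 and 124 ± 11), also overlapped. ndufa3 was the lowest tested gene of complex I, at 9.74 ± 2.0 FPKM in the mutant and 9.77 ± 0.62 FPKM in wild type.

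Both acyl carrier genes were expressed. Their product holds a fatty acyl chain for mitochondrial lipid synthesis and is also a subunit of complex I. ndufab1a had 79.9 ± 4.9 FPKM in the mutant and 74.4 ± 3.3 FPKM in wild type, and ndufab1b had 74.6 ± 10.4 and 59.6 ± 13.6 FPKM. These ndufab1b totals rest on its first exon. By its last exon ndufab1b stood at 63.1, 26.4 and 29.3 FPKM in the mutant and 48.6, 55.3 and 28.2 FPKM in wild type. ndufa1, a membrane arm subunit, varied more within genotypes than between them, at 44.9, 22.3 and 16.4 FPKM in the mutant and 18.8, 37.1 and 35.2 FPKM in wild type. It has 2 listed first exons, and the one at chr14:33073666-33073739 carried the spread, from 9.04 to 34.1 FPKM in the mutant and from 9.20 to 27.3 FPKM in wild type.

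Complex II, succinate dehydrogenase, also works in the citric acid cycle and has no subunit encoded by mitochondrial DNA. None of its 4 tested genes was called, against 2.42% of all genes. The membrane anchors sdhc and sdhdb, which hold the heme and the ubiquinone site, did not overlap between the genotypes and were higher. The same held for 12.1% of all genes, and for 13.6% of genes with a mean of at least 20 FPKM. sdhc had 90.7, 85.3 and 76.6 FPKM in the mutant and 72.6, 63.9 and 73.2 FPKM in wild type (log2 fold change 0.26, SE 0.090, limma adjusted p = 0.211). sdhdb had 47.6, 43.8 and 43.7 FPKM in the mutant and 39.4, 36.8 and 42.2 FPKM in wild type (0.19, SE 0.079, limma adjusted p = 0.304). The catalytic subunits overlapped. sdha, the flavoprotein that oxidises succinate, had 69.0 ± 5.3 FPKM in the mutant and 75.0 ± 3.2 FPKM in wild type, and the iron-sulfur subunit sdhb had 59.8 ± 3.3 and 55.6 ± 2.1 FPKM. sdhda was listed at 0.200 FPKM in mutant replicate 2 and in no other library.

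Complex III, the cytochrome bc1 complex, had no called gene among 6. None reached an unadjusted p under 0.05, against 15.9% of all genes. The core proteins uqcrc1 and uqcrc2b and the Rieske iron-sulfur protein uqcrfs1 had fold changes of -0.07, -0.13 and 0.00 on the log2 scale. uqcrc2b stood at 75.1, 78.3 and 71.4 FPKM in the mutant and 82.0, 84.4 and 80.5 FPKM in wild type, without overlap (SE 0.066, limma adjusted p = 0.382). uqcrc1 was at 112 ± 15.5 FPKM in the mutant and 118 ± 15 FPKM in wild type. The small subunits uqcrq, the most abundant gene of the complex (164 ± 23.4 FPKM in the mutant and 159 ± 20.9 in wild type), and uqcrh (117 ± 8.6 and 105 ± 10.1) both overlapped.

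The second copy of the core protein, uqcrc2a, was uneven among the mutants. It had 50.4, 21.6 and 46.9 FPKM in mutant replicates 1, 2 and 3, against 22.3, 30.9 and 27.0 FPKM in wild-type replicates 1, 2 and 3. Mutant replicates 1 and 3 were above wild type and mutant replicate 2 was the lowest library of all. Its share of the summed uqcrc2a and uqcrc2b FPKM was 33.8% ± 10.5 in the mutant and 24.4% ± 2.8 in wild type (SD, n = 3 each).

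Complex IV, cytochrome c oxidase, had 1 called gene among 20, against 2.42% of all genes. Its nuclear subunits surround a core encoded by mitochondrial DNA, and several have tissue forms from gene duplication. ndufa4, at chr12:9842650-9846483 on the plus strand, had 71.6, 73.6 and 54.7 FPKM in mutant replicates 1, 2 and 3, against 40.9, 41.9 and 35.0 FPKM in wild-type replicates 1, 2 and 3. The genotypes did not overlap and the mutant mean was 1.70 times the wild-type mean. This is 0.74 on the log2 scale (SE 0.13), with a limma adjusted p of 0.0332. The copy ndufa4l was far more abundant and overlapped, with 266 ± 22.9 FPKM in the mutant and 255 ± 16.7 FPKM in wild type. ndufa4 thus held 19.9% ± 2.4 of the FPKM of its 3 copies in the mutant and 13.3% ± 1.8 in wild type, and ndufa4l 79.4% ± 2.4 and 86.1% ± 1.8. The third copy, ndufa4l2a, stood at 2.53, 2.39 and 1.86 FPKM in the mutant and 1.48, 1.80 and 1.52 FPKM in wild type (0.32, SE 0.15, limma adjusted p = 0.35). Of 37 tested neighbours of ndufa4 within 1 Mb, taco1, rac1a and ngfrb were lower and none was higher. On chromosome 12 as a whole 19 of 576 tested genes (3.30%) were called, against 2.42% of all genes.

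Without the 3 ndufa4 copies, complex IV had a median log2 fold change of 0.01, with 10 of 17 genes above 0 and none called. cox5ab came closest to the threshold, with 118, 121 and 118 FPKM in the mutant and 92.4, 94.0 and 103 FPKM in wild type (0.30, SE 0.069, limma adjusted p = 0.0778). Its last exon was listed in no mutant library, so these mutant values rest on the first exon, and with last exons alone the fold change turned to -6.61 and was called lower. Its copy cox5aa was at 253 ± 13.3 FPKM in the mutant and 251 ± 12.6 FPKM in wild type, and the cox5ab share of the pair, with the same limit, was 32.0% ± 1.2 in the mutant and 27.8% ± 0.23 in wild type. cox6b2 had 280, 231 and 225 FPKM in the mutant and 189, 191 and 221 FPKM in wild type (0.29, SE 0.10, limma adjusted p = 0.24). Its copy cox6b1 overlapped, at 53.8 ± 6.7 and 56.3 ± 2.0 FPKM, and the cox6b2 share of that pair was 82.0% ± 1.1 in the mutant and 78.0% ± 2.0 in wild type.

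The other tissue forms overlapped between the genotypes. cox4i1 held 95.8% ± 0.54 of the cox4 total in the mutant and 96.0% ± 0.11 in wild type. cox4i2, whose mammalian counterpart is induced by low oxygen, had 11.0 ± 2.2 FPKM in the mutant and 8.88 ± 1.0 FPKM in wild type, and cox4i1l had 3.29 ± 0.53 and 4.10 ± 0.51 FPKM. cox7a1, a form of heart and skeletal muscle in mammals, had 5.59, 5.68 and 5.06 FPKM in the mutant and 5.51, 8.03 and 11.5 FPKM in wild type (-0.49, SE 0.22, limma adjusted p = 0.337). Wild-type replicate 3 held the highest value and wild-type replicate 1 lay among the mutants. cox7a2a stood at 158 ± 8.2 FPKM in the mutant and 151 ± 6.8 in wild type, and cox7a3 at 70.0 ± 4.1 and 69.6 ± 3.9. cox6a1 carried nearly all of its pair, at 268 ± 19.1 FPKM in the mutant and 264 ± 22.1 in wild type, and cox6a2, another muscle form of mammals, was among the lowest, at 2.05 ± 0.66 and 2.33 ± 0.99 FPKM. cox8a was the most abundant gene of complex IV, at 353 ± 25.5 FPKM in the mutant and 355 ± 38.4 FPKM in wild type.

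Complex V held the most abundant members. None of its 14 tested genes was called, and 3 had an unadjusted p under 0.05, against 15.9% of all genes. The median log2 fold change was 0.005, with fold changes from -0.33 to 0.25. atp5b and atp5a1 encode the beta and alpha subunits, which form the catalytic head. atp5b had 657, 660 and 570 FPKM in the mutant and 617, 671 and 690 FPKM in wild type, and atp5a1 had 569, 559 and 512 FPKM in the mutant and 506, 566 and 554 FPKM in wild type. The genotypes overlapped in both genes. The gamma subunit gene atp5c1, whose product is the turning shaft, did not overlap, with 261, 237 and 236 FPKM in the mutant and 209, 218 and 211 FPKM in wild type (0.20, SE 0.068, limma adjusted p = 0.214). atp5j, which encodes coupling factor 6 of the stalk, did not overlap either, with 70.6, 76.8 and 64.8 FPKM in the mutant and 55.9, 60.3 and 61.0 FPKM in wild type (0.25, SE 0.082, limma adjusted p = 0.189). atp5e, the epsilon subunit of the central stalk, had a fold change below 0. It stood at 82.5, 75.0 and 72.7 FPKM in the mutant and 82.2, 99.1 and 110 FPKM in wild type (-0.33, SE 0.11, limma adjusted p = 0.215), and mutant replicate 1 was just above wild-type replicate 1.

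The c subunit, which forms the turning ring of the ATP synthase, is encoded by 3 genes here. atp5g3b gave the most, with 484 ± 74.3 FPKM in the mutant and 449 ± 48.2 FPKM in wild type. Its share of the 3 was 57.6% ± 2.0 in the mutant and 55.8% ± 2.0 in wild type. atp5g1 had 231 ± 18.5 FPKM in the mutant and 231 ± 14.9 FPKM in wild type, and atp5g3a had 122 ± 10.6 and 123 ± 0.49 FPKM. None of the 3 differed beyond the spread of its libraries. Of the subunit e genes, atp5ib had 177 ± 10.3 FPKM in the mutant and 199 ± 15.2 FPKM in wild type, and atp5ia, the lowest tested gene of the complex, had 54.6 ± 3.6 and 51.9 ± 7.5 FPKM. The atp5ib share of that pair was 76.4% ± 0.90 in the mutant and 79.4% ± 1.4 in wild type.

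By median level, the tested assembly and coupling factors were lower than the subunits of each complex. Some single subunit genes, such as cox6a2, cox4i1l and ndufa4l2a, were nonetheless below most of these factors. Of 10 tested, 1 was called higher in the mutant, against 1.21% of all genes. This was sdhaf2, which inserts the flavin into the catalytic subunit of complex II. Its listed exons span chr7:13100360-13109870 on the minus strand. It had 10.2, 9.88 and 9.51 FPKM in mutant replicates 1, 2 and 3, against 7.18, 6.81 and 5.97 FPKM in wild-type replicates 1, 2 and 3, with no overlap. This is 0.51 on the log2 scale (SE 0.098), with a limma adjusted p of 0.0460. Its target sdha was not called. Of the 18 tested neighbours of sdhaf2 within 1 Mb, polr2l was lower. On chromosome 7 as a whole 11 of 808 tested genes (1.36%) were called, against 2.42% of all genes.

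Other assembly and coupling factors were described after their values were seen. ndufaf1, an assembly factor of the complex I membrane arm, lay just outside the threshold, with 18.2, 17.8 and 18.3 FPKM in the mutant and 12.2, 13.2 and 14.6 FPKM in wild type (0.42, SE 0.087, limma adjusted p = 0.0555). atp5s, a coupling factor gene, had 5.74, 6.21 and 6.42 FPKM in the mutant and 2.56, 2.83 and 4.84 FPKM in wild type (0.73, SE 0.19, limma adjusted p = 0.116). Wild-type replicate 3 lay between the other wild-type libraries and the mutants, so its omission was bound to widen the difference. Without it the log2 fold change of atp5s was 0.95 (limma adjusted p = 0.0343). This was the only 1 of 18 alternatives that called atp5s. Leaving out any other library gave limma adjusted p of 0.187 to 0.301. ndufaf2 and sdhaf3 also did not overlap, at 5.75 ± 0.093 and 7.90 ± 0.16 FPKM in the mutant and 4.67 ± 0.45 and 6.82 ± 0.27 FPKM in wild type. The remaining 5, ndufaf4, ndufaf5, ndufaf6, ndufaf7 and sdhaf4, overlapped. A wider list of assembly factors held 35 tested genes outside the name rule, with a median log2 fold change of 0.04. None of them was called higher and 1, taco1, was called lower. Over all genes tested, 1.21% were called higher and 1.2% lower. taco1, which in mammals activates translation of a mitochondrially encoded complex IV subunit, had 4.71, 3.71 and 2.69 FPKM in the mutant and 10.1, 10.8 and 10.5 FPKM in wild type (-1.31, SE 0.16, limma adjusted p = 0.00789). The most abundant assembly factors, cox17 (47.4 ± 6.6 FPKM in the mutant and 48.5 ± 1.6 in wild type) and uqcc2 (32.0 ± 4.4 and 24.4 ± 2.9), were not called.

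In 2 further lists, mostly of genes that work beside the complexes, 2 of 34 tested genes were called (5.88%), against 2.42% of all genes. Of 16 tested genes of the mobile electron carriers and of ubiquinone synthesis, 1 was higher and none was lower, with a median log2 fold change of 0.19. Their summed level was 642, 631 and 571 FPKM in mutant replicates 1, 2 and 3 and 530, 555 and 523 FPKM in wild-type replicates 1, 2 and 3, without overlap. coq9, a lipid-binding protein of ubiquinone synthesis, had 21.4, 20.6 and 18.9 FPKM in the mutant and 13.0, 15.5 and 14.4 FPKM in wild type (0.48, SE 0.094, limma adjusted p = 0.0475). cycsb, a cytochrome c gene, was at 303 ± 38.5 FPKM in the mutant and 258 ± 12.9 in wild type, and cyc1 was at 84.0 ± 13.8 and 71.4 ± 4.5. cyc1 encodes cytochrome c1, itself a subunit of complex III. The name rule does not take cyc1, so it is counted in this list and not in complex III. Of 18 tested regulators of mitochondrial gene expression, 1 was lower and none was higher, with a median of -0.03. This was gabpb2a, named for a partner subunit of the ETS factor GABPA, with 3.45, 2.69 and 2.61 FPKM in the mutant and 5.87, 7.01 and 6.27 FPKM in wild type (-0.92, SE 0.13, limma adjusted p = 0.0155). yy1a and tfam, the most abundant of that list, were not called. The 13 subunits encoded by mitochondrial DNA are named in the deposited table and had no gene total, so they were not tested here.

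Markers of muscle and of other tissues were read in the same libraries. Of 14 tested fast muscle markers, 3 were lower in the mutant (acta1b, tnnt3b and atp2a1), and their summed level was 25739 to 26571 FPKM in the mutant and 27972 to 31803 FPKM in wild type. Of 7 tested slow muscle markers, tnni1c was higher, and the sum was 782 to 789 FPKM in the mutant and 640 to 742 FPKM in wild type. Over all genes tested, 1.2% were called lower and 1.21% higher. None of the tested markers of heart muscle (7), liver (12), neurons (13), erythrocytes (6) and lens (11) was called. Their median log2 fold changes were 0.07, 0.12, -0.02, 0.00 and -0.33 in that order, against -0.12 for fast and 0.18 for slow muscle markers. In the sum of each of these uncalled lists the genotypes overlapped. The part of tissue makeup in the members' values was not tested. Neither of the muscle forms named above, cox7a1 and cox6a2, was called in limma. cox7a1 had a log2 fold change of -0.49, and the authors' deposited table gave it an adjusted p of 0.000466, without direction. cox6a2 was near the floor of the filter, at 2.05 ± 0.66 FPKM in the mutant and 2.33 ± 0.99 FPKM in wild type.

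Exon structure set limits on some totals. First-exon and last-exon sums were both listed and within 1% of each other in all 6 libraries for 75 of 88 tested members. In 4 members, cox5ab, ndufa4l, ndufb4 and uqcrc2a, at least 1 library lacked one of these sums. An event of at least 1 FPKM that was present in all libraries of 1 genotype and not listed in the other occurred in 3 tested members (3.41%), against 2.0% of all genes. In cox5ab the last exon at chr18:892085-892221 was listed at 92.4, 94.0 and 103 FPKM in wild type and in no mutant library, while its first exon was listed in all 6 libraries. In uqcrc2a the last exon at chr3:58114213-58114561 was listed only in the mutant, at 23.4, 14.7 and 14.8 FPKM, with the first exon in all 6. In ndufaf1 a short form of an exon, at chr13:33116647-33116707, had 8.61, 8.58 and 8.82 FPKM in mutant replicates 1, 2 and 3. Wild type lacked this short form but not the exon. A longer form with the same end, at chr13:33116588-33116707, had 1.55, 2.24 and 2.23 FPKM in wild-type replicates 1, 2 and 3. Mutant replicates 2 and 3 held the longer form at 1.59 and 1.85 FPKM, and mutant replicate 1 had no value for it. An event that is not listed can mean that transcripts were given another structure in that library, so these are differences of listing. Counted by last exons alone, cox5ab would be lower in the mutant and uqcrc2a higher.

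**Figure D5:**
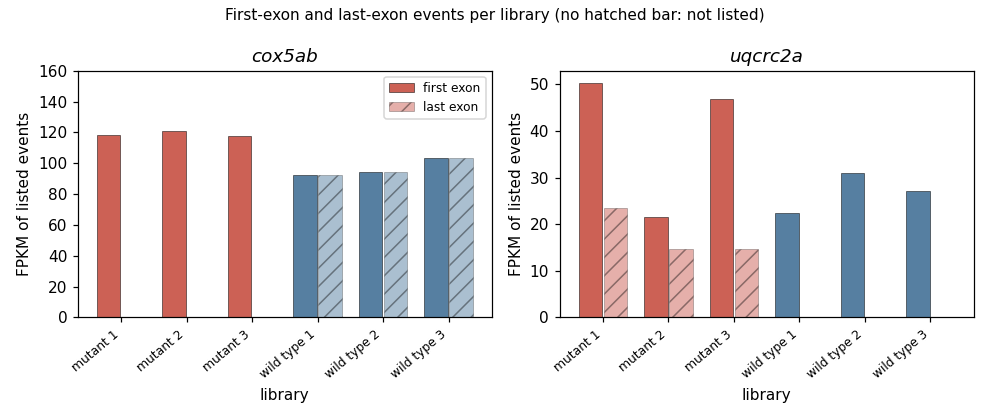
FPKM of the first exon (plain bars) and the last exon (hatched bars) of cox5ab and uqcrc2a in each library, with csf1ra mutant libraries in red left of wild-type libraries in blue. The last exon of cox5ab is missing from all mutant libraries and that of uqcrc2a from all wild-type libraries, while both first exons are present in all 6.

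Further limits hold for other members. Among members with both sums in all 6 libraries, the gap between the sums was largest in ndufb2, ndufab1b and ndufb7. It reached 88.9%, 65.7% and 43.6% of the total in that order. The total of ndufa4l rests on its last exon, since its first exon was listed only in mutant replicates 2 and 3. atp5f1, which encodes the b subunit of the ATP synthase stalk, had a total under 1 FPKM in every library and so was not tested. Its transcripts were listed under intron events instead, whose summed level was 296, 291 and 267 FPKM in the mutant and 242, 274 and 272 FPKM in wild type (0.11, SE 0.078, limma adjusted p = 0.52). ndufs8b was listed in 2 libraries and under 1 FPKM in both. ndufa12, ndufa9b, uqcrb, cox8b and sdhaf1 had no total in any library.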

How the data were processed

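RNA of 6 whole-embryo samples was analysed, 3 csf1ra mutant and 3 wild type. The submitters' processing notes name Trimmomatic 0.30 and HISAT2 2.0.1. They also name HTSeq 0.6.1, DESeq and Cufflinks 2.2.1. SAMtools 0.1.18 and the build GRCz10 are named as well, all without roles, order or settings. Per the file headers, the authors deposited FPKM for transcript-structure events of each library, and an event at 0 has no line. A further table deposited by the authors holds their own p-value and adjusted p-value for each transcript. Its 2 columns of values per side and its fold column do not name the genotypes and were not used.

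The total of a gene was the larger of its summed first-exon and last-exon FPKM, and genes without a value in a library were set to 0 there. Genes entered when they reached 1 FPKM in 3 or more libraries. limma 3.58.1 in R 4.3.3, with the trend and robust options, was fitted to log2(FPKM + 1) with genotype alone. Tests were two-sided, and the Benjamini-Hochberg adjustment ran over 15475 genes. Tables were built with Python 3.11.15 and pandas 2.3.3.

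The members and gene lists were chosen with earlier results of these data known. Named genes were the called members, the 3 of smallest p, the 2 of highest FPKM and the lowest in each complex, all copies of duplicated forms, and the called and 2 most abundant genes of other lists. The values of 1 tested member are not reported here and are left out of the plot of fold changes. Tissue markers are given by counts, list sums or medians, and called genes. ndufs1, ndufv2, sdhb, ndufa1, ndufs8b, atp5f1, the neighbouring genes and the exon events were also chosen after their values were seen. Replicate numbers were not used to pair the samples in the main fit (correlations of same-numbered deviations -0.027, 0.0027 and 0.0064). Such small correlations do not show a pairing and cannot exclude one. Alternatives were other pseudocounts, filters, scalings, limma options and gene totals, a replicate block and leaving out each library. The largest paired event sum was added after seeing the data.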

Additional observations from a re-analysis of the deposited data

How the results depend on the processing

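Over the alternatives run, ndufa5 was called lower in every one of 18, with a log2 fold change of -2.46 to -2.17 and a limma adjusted p of 0.000106 to 0.00866. The 4 higher calls were less firm: ndufa4 was called in 12 of 18 alternatives, ndufv1 in 11, ndufs6 in 7 and sdhaf2 in 7, all with positive fold changes throughout, and limma adjusted p up to 0.125, 0.0916, 0.169 and 0.166 in that order. The count of 4 members higher was 2 with a pseudocount of 0.1, 2 with no filter, 2 with genes listed in all 6 libraries alone and 0 without the trend and robust options, where 263 of all genes were called. Leaving out each library gave 0 to 3 members higher and 1 to 2 lower, and 88 to 397 genes called against 374 in all. Without mutant replicate 3, ndufv1, ndufa4 and ndufs6 were called and sdhaf2 was not (limma adjusted p = 0.0665); without wild-type replicate 3 the only higher member was atp5s, and each of the other 4 omissions left none. All genes called fell to 232 with genes listed in all 6 libraries alone. With the replicate number as a block, which the data do not show to pair the samples, 115 genes and 1 member (ndufa4) higher were called, and ndufa5 stayed lower. With last exons alone 2 members were lower, and cox5ab reversed to -6.61. That setting also called uqcrc2a higher, at 4.19 (limma adjusted p = 5.37e-05). With first exons alone ndufs6 was not called (limma adjusted p = 0.0552). Without 1 library at a time the median of the assembly and coupling factors was 0.14 to 0.23. Quantile and median-ratio scaling called the same numbers of members, and median-ratio scaling moved the median of complex V to -0.01. Depth is unknown, so its limits cannot be stated.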
